A study of Homo sapiens with 4 samples.

Results

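The genes described here encode the proteins that copy DNA at replication origins and forks: 44 genes, listed by name, of the 22465 genes with a value on the array. Of the 44, 43 were measured by a transcript cluster that carries their symbol alone. PRIM2 was not, because its cluster is also named for the pseudogene PRIM2BP, and no value is attributed to it. Each of the 43 had a single such cluster, so no choice between clusters entered their values. By role, 9 of the 44 genes belong to origin licensing, 15 to the CMG helicase and its activation (MCM8 included), 9 to primase and the polymerases, and 11 to the sliding clamp, its loader, the single-strand binding protein RPA and the joining of Okazaki fragments.

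Before S phase, the origin recognition complex (ORC), CDC6 and CDT1 load the ring-shaped MCM2 to MCM7 helicase onto origins, and geminin (GMNN) blocks further loading by binding CDT1. The kinase CDC7 with its activator DBF4, together with MCM10, turns loaded rings into active CMG helicases, which are named after CDC45, MCM and GINS. Primase and DNA polymerase alpha then start each strand, replication factor C (RFC) loads the PCNA clamp, and polymerases delta and epsilon extend. Many of these genes are transcribed in cycling cells under control of E2F factors, and their transcripts are low in neurons that have left the cell cycle.

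The cells were SH-SY5Y, an established human neuroblastoma line. One group of 2 arrays held cells infected to express a control shRNA, a short hairpin RNA, and the other group of 2 held cells infected with an shRNA against LSD1+8a, a product of KDM1A, the gene of the histone demethylase LSD1, with exon 8a spliced in. Both groups were differentiated in the same way, with 10 μM retinoic acid over 4 days and then BDNF at 50 ng/mL over 3 days with no serum. Total RNA was hybridised to an Affymetrix human transcriptome array, and every value below is a log2 signal made with RMA, which keeps no detection call. The labels do not say whether replicates came from separate cultures, nor whether infected cells were pooled or cloned, and the p-values below therefore reflect the spread among these arrays alone, part or all of which may be technical.

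KDM1A read 9.10 and 9.25 in control cells and 8.76 and 8.78 with the LSD1+8a shRNA, a value for the whole gene that does not isolate exon 8a. Its difference was -0.41 ± 0.09 (standard error, SE; limma adjusted p = 0.0299), and after cyclic loess between arrays, a scaling that removes differences that depend on signal level, its adjusted p was 0.0573. Of the 10 neuroblast markers with a value, 1 was called lower (ISL1, by 1.38-fold) and 2 higher (GATA3 and TH). The 10 include the noradrenergic enzyme DBH and the neuronal gene STMN2, and their mean levels ran from 6.63 to 11.66. With the values as deposited, limma called 23.3% of all genes, 2524 lower and 2721 higher, which became 2736 and 1109 once array medians were centred and 1763 and 680 after cyclic loess. Of 9 mesenchymal markers with a value, 3 were called lower (NOTCH2, TWIST1 and VIM, the intermediate filament vimentin, the last by 1.65-fold) and 1 higher, that of CD44. After cyclic loess TH, TWIST1 and CD44 were not called (adjusted p of 0.0682, 0.0741 and 0.243). CD44, at 4.47 to 4.81, and PRRX1 and YAP1 were near the background. The mean log2 signal over that list was 6.36 and 6.32 in control cells and 6.14 and 6.26 with the LSD1+8a shRNA, and its part in the results below was not tested. Of these 9 markers FN1 differed most between the LSD1+8a shRNA replicates (5.50 and 6.25), which weighs on that mean. The array median over all genes lay between 6.16 and 6.25, and the median of background features with GC counts of 13 to 18 lay at 4.50 and 4.43 for control cells and at 4.71 and 4.72 with the LSD1+8a shRNA.

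Genes of the replication machinery were lower in cells with the LSD1+8a shRNA across every role. Of the 43 measured genes, 32 fell, 0 rose and 11 did not pass an adjusted p of 0.05 in limma fitted over all genes. Over the whole array 11.2% of genes were called lower, and 14.8% of the 14918 genes whose mean level lies within the range of the replication genes. The median difference was -0.50 on the log2 scale, which is 1.41-fold lower, against a median of 0.08 over all genes and of 0.04 over genes in the same range of levels. On 41 of the 43 genes both LSD1+8a shRNA arrays read below both control arrays, which held in that direction for 27.7% of all genes. At an unadjusted p under 0.05, 39 of the 43 were lower, against 18% of all genes. The list was chosen with earlier results of these arrays known, so its count is a description.

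The falls were moderate in size. Of the 32 called genes, 13 were at least 1.5-fold lower. Over the whole array 2.98% of genes were both called and lower by at least that size. Of the 43 genes, 21 lay among the 5% of all genes with the lowest differences (at or below -0.50) and 3 among the lowest 1% (at or below -0.89). These 3 were PRIM1, PCNA and GINS2. At the other end POLD1 and POLD2, which encode the catalytic and a second subunit of polymerase delta, did not differ by more than the spread of their replicates. After cyclic loess 28 of the 43 were called lower, where 7.85% of all genes were, and the median was -0.48. ORC5, MCM2, MCM6 and DBF4 were not called after that scaling (adjusted p of 0.0563, 0.0696, 0.0532 and 0.0791).

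The calls need both control arrays. Without control replicate 1, limma called none of the 22465 genes (9835 had an unadjusted p under 0.05), and the same was true without control replicate 2 (5339 genes). Among the 43 replication genes, 34 had an unadjusted p under 0.05 without control replicate 1 and 32 without control replicate 2, and their medians there were -0.53 and -0.43. Without LSD1+8a shRNA replicate 1 limma called 21 of the 43 lower, against 3.94% of all genes, and without LSD1+8a shRNA replicate 2 it called 25, against 8.79%. Tested over all 67528 transcript clusters, named or not, 10 of the 43 were called lower, against 1.08% of the clusters.

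**Figure D1:**
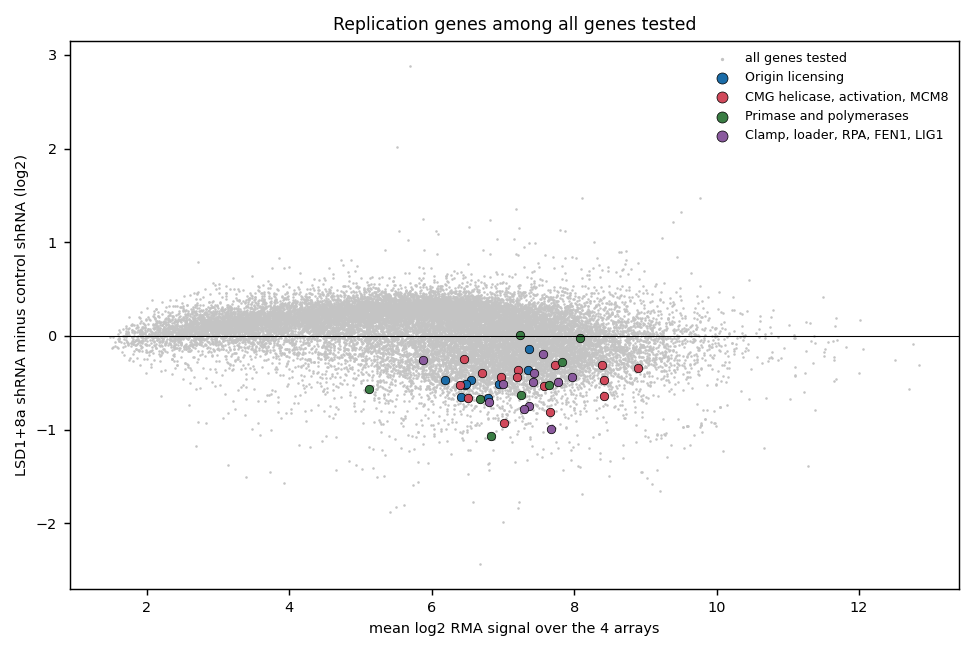
Each grey point is 1 of the 22465 genes tested, with its mean log2 signal over the 4 arrays on the x axis and its difference, LSD1+8a shRNA minus control shRNA (log2), on the y axis. The 43 replication genes are coloured by role, and 42 of them lie below 0, with PRIM1 lowest at -1.07.

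**Figure D2:**
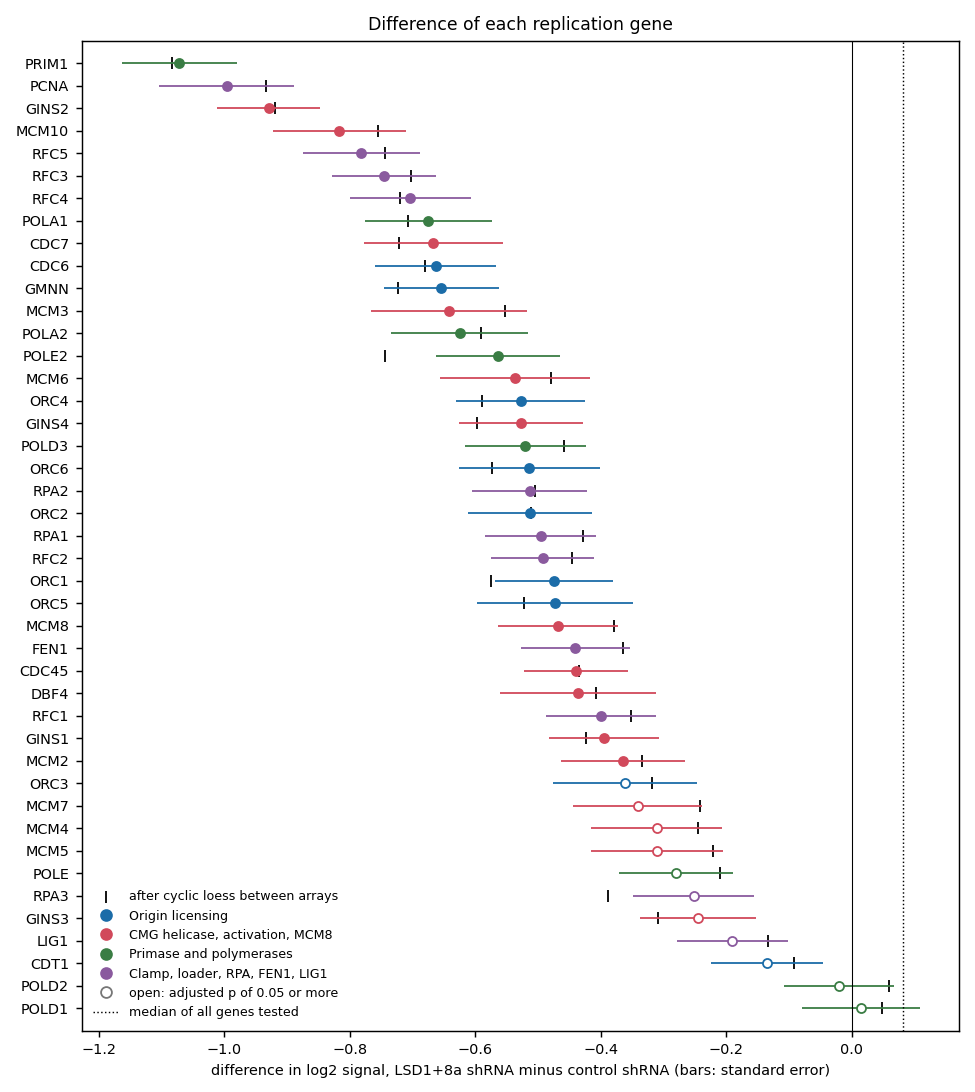
Difference in log2 signal of each replication gene, LSD1+8a shRNA minus control shRNA (points, n = 2 arrays a group), with its standard error (bars) and its value after cyclic loess (ticks). The 32 filled points passed an adjusted p of 0.05 and the 11 open ones did not. The dotted line marks the median of all genes at 0.08.

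Promoter sequences are shown for the 3 genes with the largest falls (PRIM1, PCNA and GINS2), for called members of the loader, the helicase and licensing (RFC3, MCM6, MCM3 and CDC6), and for 3 genes that were not called (LIG1, CDT1 and POLD1), so that genes at both ends of the range can be read side by side. Each stretch runs from 160 bases before the annotated gene start to base 20 of the gene, written 5′ to 3′ on the strand of the gene. The sequences are from RefSeq, build GRCh38.p14. Capitals mark E2F-type matches, that is TTTCCCGC, TTTCGCGC, TTTGCCGC or TTTGGCGC on either strand.
PRIM1: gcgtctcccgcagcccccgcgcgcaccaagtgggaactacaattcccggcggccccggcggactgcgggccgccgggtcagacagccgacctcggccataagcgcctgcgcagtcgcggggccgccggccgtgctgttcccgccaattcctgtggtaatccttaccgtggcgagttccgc
PCNA: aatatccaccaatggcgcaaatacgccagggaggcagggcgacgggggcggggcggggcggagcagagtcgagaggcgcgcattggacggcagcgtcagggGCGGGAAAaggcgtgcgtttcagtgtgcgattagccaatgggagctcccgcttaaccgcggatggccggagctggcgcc
GINS2: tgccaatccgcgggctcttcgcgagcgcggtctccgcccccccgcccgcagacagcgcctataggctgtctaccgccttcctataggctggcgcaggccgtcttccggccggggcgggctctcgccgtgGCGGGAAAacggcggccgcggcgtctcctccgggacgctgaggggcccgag
RFC3: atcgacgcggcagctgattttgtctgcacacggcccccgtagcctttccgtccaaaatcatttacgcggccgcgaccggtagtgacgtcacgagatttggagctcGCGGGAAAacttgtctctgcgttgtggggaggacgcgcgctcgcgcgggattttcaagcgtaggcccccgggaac
MCM6: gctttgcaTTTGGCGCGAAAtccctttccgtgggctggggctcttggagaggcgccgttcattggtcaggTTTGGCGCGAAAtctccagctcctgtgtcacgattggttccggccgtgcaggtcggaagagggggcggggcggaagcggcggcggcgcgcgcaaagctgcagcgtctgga
MCM3: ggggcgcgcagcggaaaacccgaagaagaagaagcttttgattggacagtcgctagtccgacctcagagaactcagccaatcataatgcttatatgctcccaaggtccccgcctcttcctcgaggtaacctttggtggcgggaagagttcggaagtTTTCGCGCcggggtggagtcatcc
CDC6: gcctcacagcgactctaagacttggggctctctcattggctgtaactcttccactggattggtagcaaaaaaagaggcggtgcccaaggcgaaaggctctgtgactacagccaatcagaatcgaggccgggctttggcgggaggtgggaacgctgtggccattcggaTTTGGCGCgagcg
LIG1: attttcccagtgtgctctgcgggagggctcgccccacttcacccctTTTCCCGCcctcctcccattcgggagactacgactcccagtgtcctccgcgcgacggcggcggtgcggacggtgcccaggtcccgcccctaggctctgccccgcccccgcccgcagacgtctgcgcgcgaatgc
CDT1: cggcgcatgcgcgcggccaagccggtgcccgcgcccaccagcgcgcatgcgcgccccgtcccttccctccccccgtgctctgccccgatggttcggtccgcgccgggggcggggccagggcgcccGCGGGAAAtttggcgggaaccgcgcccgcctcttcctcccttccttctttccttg
POLD1: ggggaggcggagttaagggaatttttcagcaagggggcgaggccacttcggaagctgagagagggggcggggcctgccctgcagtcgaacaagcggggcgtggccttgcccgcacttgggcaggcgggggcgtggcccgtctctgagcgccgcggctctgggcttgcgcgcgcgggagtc
The stretches lie at chr12:56752304-56752483 on the minus strand for PRIM1, chr20:5126603-5126782 on the minus strand for PCNA, chr16:85688935-85689114 on the minus strand for GINS2, chr13:33817989-33818168 on the plus strand for RFC3, chr2:135876424-135876603 on the minus strand for MCM6, chr6:52284723-52284902 on the minus strand for MCM3, chr17:40287719-40287898 on the plus strand for CDC6, chr19:48170325-48170504 on the minus strand for LIG1, chr16:88803629-88803808 on the plus strand for CDT1 and chr19:50384163-50384342 on the plus strand for POLD1. PRIM1 and POLD1, at opposite ends of the range of differences, have no capitals, and PCNA and CDT1 each have a single match on the other strand. MCM6 holds 4 matches in 2 overlapping pairs. The stretches were picked by name, only in part by the genes' differences, and carry no test. RFC3, MCM6, MCM3 and CDC6 each hold a match. RFC5 of the loader (-0.78) and MCM10 of the helicase group (-0.82), called genes not shown, have none. The share of stretches with capitals therefore does not stand for the list.

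A promoter window of 300 bases (250 before the start and 50 from the start on, at the first start listed for a gene) was matched for 38 of the 44 genes, PRIM2 among them. GINS4, MCM4, MCM5, POLD3, RPA2 and RPA3 had no window. An E2F-type match was found in 18 of the 38 windows (47.4%), against 703 of 15842 windows of protein-coding genes (4.44%). The letters CCAAT, the core of the site bound by the factor NF-Y, were found on either strand in 21 of the 38 (55.3%), against 36.4% of all windows, and 11 genes held both kinds of match. TTTGAA or TTCGAA on either strand, the core letters of the cell cycle element CHR, was in 2 of the 38 (5.26%, MCM6 and DBF4), against 13.5% of all windows. Of the 24 E2F-type matches, 15 began within 60 bases before to 13 after the start, and 1 overlapped a CCAAT match. Positions, overlaps and genes with both kinds of match were not counted over all windows, so these counts are descriptions without a comparison.

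The median fall was alike in genes with and without an E2F-type match. Of the 18 measured genes with a match, 12 were called lower, with a median difference of -0.50. Of the 19 measured genes with a window and no match, 17 were called lower, also with a median of -0.50. PRIM1, MCM10 and RFC5 were without a match, and CDT1, LIG1, GINS3, POLE, MCM7 and ORC3, which were not called, had one. A match is a description of letters, not a bound site, and no test was made of the split. Only the 4 exact strings were searched, so a gene without a match may hold a site with other letters. The split therefore cannot separate genes with an E2F site from those without.

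**Figure D3:**
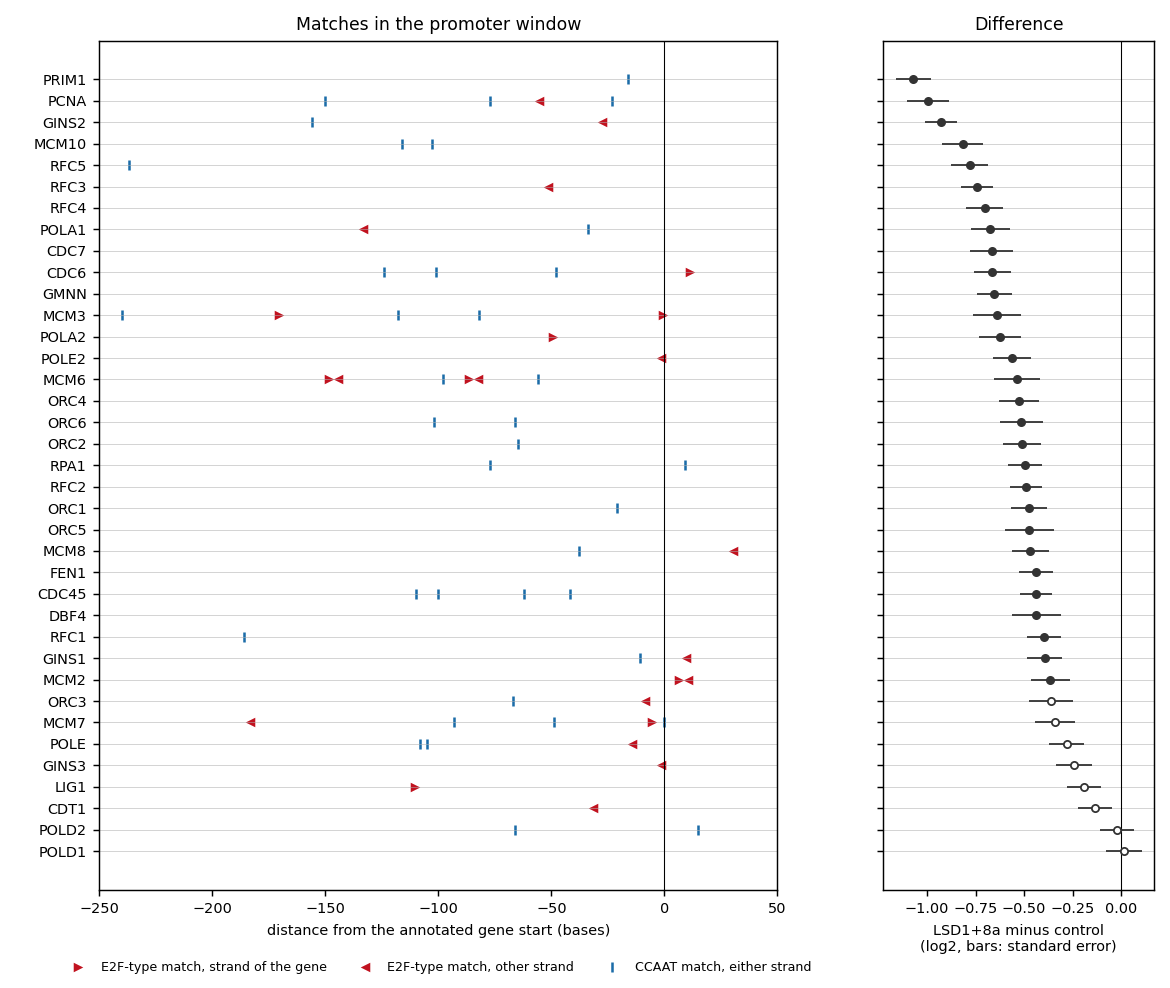
Left, E2F-type matches (red arrows, pointing along the strand of the match) and CCAAT matches (blue ticks) in the promoter windows of the 37 measured genes with a window, by distance from the annotated start in bases. Right, the difference of the same genes (log2, bars are standard errors, open points did not pass an adjusted p of 0.05). Both ends of the order, PRIM1 and POLD1, are without red arrows. From ORC4 (-0.53) to RFC1 (-0.40) only MCM8 has an arrow, and from GINS1 (-0.39) to CDT1 (-0.14) every gene has at least 1.

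Of the 9 origin licensing genes, 7 fell, 0 rose and 2 did not pass, with a median of -0.51. The falls were alike among the subunits of ORC, the complex that marks origins: their differences ran from -0.53 (ORC4) to -0.36 (ORC3), and 5 of the 6 were called. ORC1, the ATPase subunit whose level follows the cell cycle, read 6.41 and 6.43 in control cells and 6.03 and 5.86 with the LSD1+8a shRNA (difference -0.47 ± 0.09 SE, limma adjusted p = 0.0240). ORC4 read 6.61 and 6.84 in control cells against 6.15 and 6.25 (adjusted p = 0.0237). The groups are separate for both genes. ORC2, ORC5 and ORC6 were lower by 1.43-fold, 1.39-fold and 1.43-fold, while ORC3 had an adjusted p of 0.0557. On all 6 ORC genes control replicate 1 read below control replicate 2, by up to 0.34 for ORC5.

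The loading factors CDC6 and CDT1 differed from each other. CDC6, the ATPase that joins ORC to load the helicase, read 7.15 and 7.10 in control cells and 6.56 and 6.36 with the LSD1+8a shRNA, a fall of 1.58-fold (difference -0.66 ± 0.10 SE, adjusted p = 0.0133). CDT1, its partner, read 7.49 and 7.38 against 7.34 and 7.26, a difference of -0.14 with a 95% interval from -0.34 to 0.07 (adjusted p = 0.264). The CDT1 groups are separated by only 0.04. GMNN, the inhibitor of CDT1, read 6.66 and 6.81 against 6.05 and 6.11 and fell 1.57-fold (adjusted p = 0.0126). Differences between these 3 genes were not tested against each other.

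Of the 15 genes of the CMG helicase and its activation, 11 fell, 0 rose and 4 did not pass, with a median of -0.44. GINS2, a subunit of the GINS complex that joins CDC45 to the MCM ring, fell most. It read 7.46 and 7.51 in control cells and 6.56 on both arrays with the LSD1+8a shRNA, a difference of -0.93 ± 0.08 (SE), or 1.90-fold (adjusted p = 0.00464). The other GINS genes moved less: GINS4 fell 1.44-fold and GINS1 1.31-fold, and GINS3 was 0.24 lower without passing (adjusted p = 0.0824). CDC45 read 7.18 and 7.19 against 6.72 and 6.78, a fall of 1.36-fold (adjusted p = 0.0220). The replicates of CDC45 differed by 0.0089 in control cells and by 0.052 with the LSD1+8a shRNA.

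The factors that activate the helicase all fell. MCM10, which is needed for the loaded helicase to unwind DNA, read 7.98 and 8.16 in control cells and 7.35 and 7.16 with the LSD1+8a shRNA (difference -0.82 ± 0.11 SE, 1.76-fold lower, adjusted p = 0.0105). CDC7, the kinase that phosphorylates the MCM ring, read 6.71 and 6.98 against 6.13 and 6.23 and fell 1.59-fold (adjusted p = 0.0180). Its activating subunit DBF4 read 7.24 and 7.59 against 7.01 and 6.94 and fell 1.35-fold (adjusted p = 0.0458). DBF4 had the widest control spread of the 43 genes (SD 0.252, n = 2), and its call was lost after cyclic loess, quantile normalization (adjusted p = 0.0744) and centring of array medians (0.0521). MCM8, a paralogue that acts in recombination repair and is no part of CMG, fell 1.38-fold (adjusted p = 0.0255).

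The 6 subunits of the MCM ring, which act as a single complex, had a median difference of -0.35, from -0.64 (MCM3) to -0.31 (MCM5). MCM3 read 8.71 and 8.78 in control cells and 8.28 and 7.92 with the LSD1+8a shRNA, a difference of -0.64 ± 0.12 (SE; adjusted p = 0.0234). MCM6 read 7.74 and 7.96 against 7.44 and 7.18, a difference of -0.54 (adjusted p = 0.0302). MCM2 read 7.42 and 7.38 against 7.14 and 6.93, a difference of -0.36 (adjusted p = 0.0414). These 3 passed, and MCM7 (adjusted p = 0.0501), MCM4 (0.0625) and MCM5 (0.0645), with differences of -0.34, -0.31 and -0.31, did not. On all 6 the groups did not overlap.

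LSD1+8a shRNA replicate 2 carried the lower values of the MCM ring. On all 6 genes it read below replicate 1, by 0.21 (MCM2) to 0.36 (MCM3), whereas over all genes replicate 2 lay above replicate 1 by a median of 0.02. This direction was not particular to the ring. Replicate 2 also read below replicate 1 on all 8 measured primase and polymerase genes, and on 25 of the 43 replication genes. It did so on 3 of the 9 licensing genes and 3 of the 11 clamp and loader genes. Against the control mean, the median of the 6 was -0.24 on replicate 1 and -0.46 on replicate 2. Without LSD1+8a shRNA replicate 2, MCM3 alone of the 6 was called, and MCM2 and MCM6 had adjusted p-values of 0.160 and 0.0683. Without LSD1+8a shRNA replicate 1, 3 of the 6 were called. After cyclic loess only MCM3 was called (difference -0.55, adjusted p = 0.0420).

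**Figure D4:**
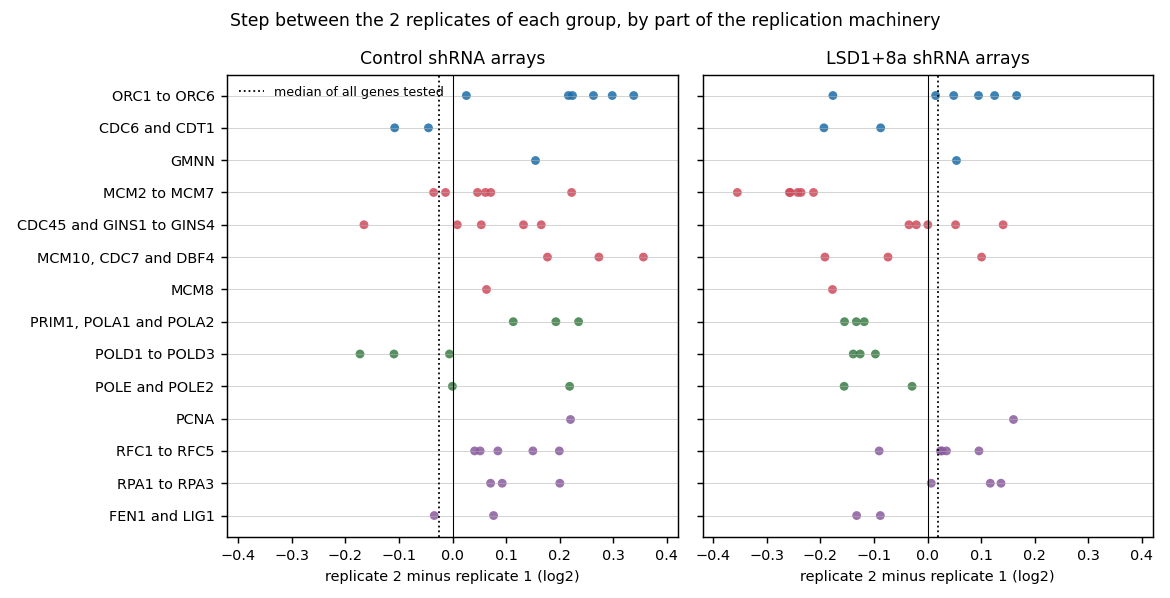
Replicate 2 minus replicate 1 (log2) for each replication gene, by part of the machinery, on the control arrays (left) and with the LSD1+8a shRNA (right), coloured by role as in the plot of differences. Dotted lines mark the median of all genes (-0.02 and 0.02). All 6 points of MCM2 to MCM7 lie between -0.36 and -0.21 on the right, where all 8 primase and polymerase points also lie below 0. All 6 ORC points lie above 0 on the left.

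Of the 8 measured primase and polymerase genes, 5 fell, 0 rose and 3 did not pass, with a median of -0.54. The 3 measured genes of the primase and polymerase alpha complex, which starts new strands, all fell. PRIM1, the catalytic primase subunit, read 7.31 and 7.42 in control cells and 6.36 and 6.24 with the LSD1+8a shRNA, a difference of -1.07 ± 0.09 (SE) or 2.10-fold (adjusted p = 0.00445). POLA1, the catalytic subunit of polymerase alpha, read 6.91 and 7.11 against 6.40 and 6.27 and fell 1.60-fold (adjusted p = 0.0145). POLA2, its accessory subunit, read 7.45 and 7.68 against 7.02 and 6.86 and fell 1.54-fold (adjusted p = 0.0194). All 3 were also called after cyclic loess and with either LSD1+8a shRNA array left out.

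Polymerase delta, which copies the lagging strand, was split. POLD1, its catalytic subunit, read 7.29 and 7.18 in control cells and 7.32 and 7.18 with the LSD1+8a shRNA. POLD2, a small subunit, read 8.10 and 8.09 against 8.14 and 8.01. The groups overlap for both, and the 95% intervals of the differences run from -0.20 to 0.23 for POLD1 and from -0.22 to 0.18 for POLD2 (adjusted p of 0.911 and 0.871). POLD3, a subunit that binds PCNA, read 7.99 and 7.82 against 7.43 and 7.34, a difference of -0.52 ± 0.10 (SE), or 1.43-fold lower (adjusted p = 0.0216). The interval of POLD3, from -0.75 to -0.30, does not overlap those of POLD1 and POLD2, but the difference between the genes was not tested.

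Polymerase epsilon copies the leading strand. Its catalytic gene POLE read 7.97 on both control arrays and 7.77 and 7.61 with the LSD1+8a shRNA, a difference of -0.28 that did not pass (adjusted p = 0.0581). Its subunit gene POLE2 read 5.29 and 5.51 against 4.85 and 4.82 (difference -0.56 ± 0.10 SE, adjusted p = 0.0199). POLE2 was the dimmest of the 43 genes. Its LSD1+8a shRNA values lie just above the background medians of those arrays (4.71 and 4.72), which limits how much of a fall the array could show. Those background features ran from 2.91 to 6.11 on replicate 1 and from 2.91 to 6.13 on replicate 2. The LSD1+8a shRNA values of ORC1, GMNN and RPA3 also lie within these ranges.

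Of the 11 genes of the clamp, its loader, RPA and Okazaki fragment joining, 9 fell, 0 rose and 2 did not pass, with a median of -0.50. PCNA, the clamp that holds polymerases on DNA, read 8.07 and 8.29 in control cells and 7.10 and 7.26 with the LSD1+8a shRNA. Its difference was -0.996 ± 0.11 (SE), or 1.99-fold lower (adjusted p = 0.00685), and the groups are 0.81 apart. RefSeq names 4 pseudogenes after PCNA and at least 1 after each of 9 other genes of the list, which could share probes with them.

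All 5 subunits of RFC, the ATPase that opens and loads the clamp, fell, with a median of -0.70. RFC5 read 7.61 and 7.76 in control cells against 6.95 and 6.86 (difference -0.78 ± 0.09 SE, adjusted p = 0.00849). RFC3 read 7.71 and 7.76 against 6.978 and 7.002 (difference -0.75 ± 0.08 SE, adjusted p = 0.00713). RFC4 read 7.05 and 7.25 against 6.43 and 6.46 and fell 1.63-fold (adjusted p = 0.0122). RFC2 fell 1.41-fold and RFC1, the large subunit, 1.32-fold (adjusted p of 0.0182 and 0.0292). The replicates of RFC3 differed by 0.052 in control cells and by 0.024 with the LSD1+8a shRNA. All 5 were called after cyclic loess too, and RFC1 was not called without LSD1+8a shRNA replicate 1 (adjusted p = 0.103).

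RPA coats single-stranded DNA at the fork. Its large subunit gene RPA1 read 7.99 and 8.06 in control cells and 7.47 and 7.59 with the LSD1+8a shRNA, and its middle subunit gene RPA2 read 7.21 and 7.30 against 6.67 and 6.81. They fell 1.41-fold and 1.43-fold (adjusted p of 0.0206 for both), and RPA3, the small subunit, was 0.25 lower on the log2 scale without passing (adjusted p = 0.0854). FEN1, the nuclease that trims Okazaki fragments, read 8.15 and 8.22 against 7.79 and 7.70 and fell 1.36-fold (adjusted p = 0.0240). LIG1, the ligase that seals them, read 7.67 and 7.64 against 7.53 and 7.40, a difference of -0.19 with a 95% interval from -0.40 to 0.02 (adjusted p = 0.135).

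**Figure D5:**
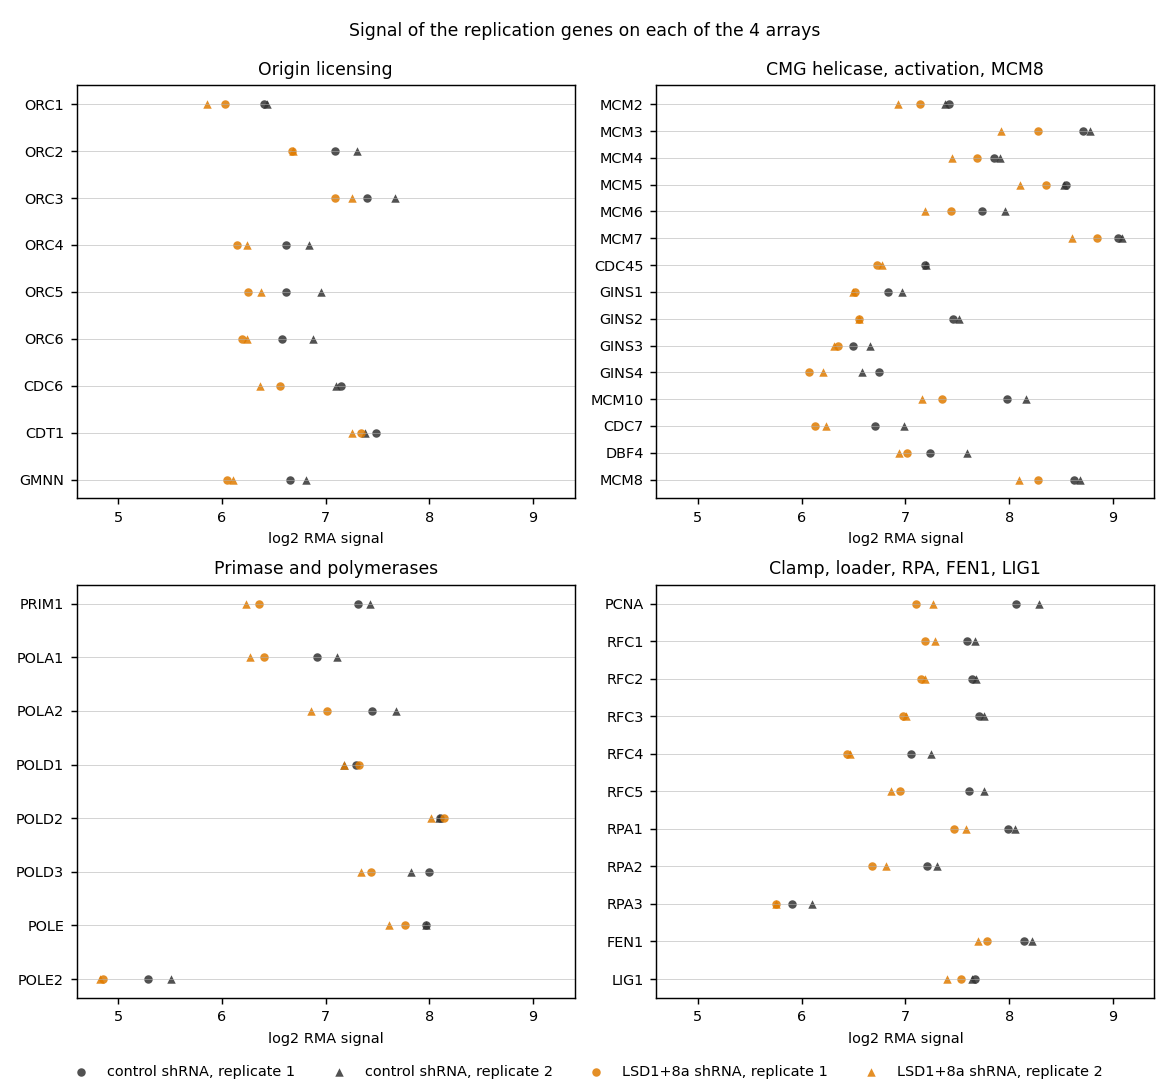
Log2 RMA signal of each of the 43 replication genes on each array, in 4 panels by role. Dark symbols are control shRNA and orange symbols LSD1+8a shRNA, with circles for replicate 1 and triangles for replicate 2. For 41 genes both orange symbols lie left of both dark ones, and for POLD1 and POLD2 they overlap. Levels of different genes come from different probes and cannot be compared.

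The 11 genes that did not pass fall into 2 kinds by adjusted p. For 7 of them (ORC3, MCM4, MCM5, MCM7, GINS3, POLE and RPA3) the adjusted p lay between 0.0501 and 0.0854. For CDT1, LIG1, POLD1 and POLD2 it ran from 0.135 to 0.911. Of the 11, only POLD1 and POLD2 had overlapping groups. Over the whole array both LSD1+8a shRNA arrays read below both control arrays on 27.7% of genes. The smallest called difference was that of MCM2 (-0.36), and the largest uncalled difference was that of ORC3 (-0.36), whose standard error was larger (0.11 against 0.10).

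A further list of 32 replication genes outside the 44 was read from the same fit. Of its 30 measured genes, 17 fell, 0 rose and 13 did not pass, with a median of -0.46. Over all genes 11.2% were called lower and the median was 0.08. The largest falls were those of PCLAF, a PCNA-binding protein (2.10-fold, adjusted p = 0.00677), ATAD5, which unloads PCNA (2.03-fold, 0.0129), and WDHD1, which links polymerase alpha to the helicase (1.94-fold, 0.00590). MTBP, a partner of the origin firing factor TICRR, fell 1.80-fold, DSCC1, a subunit of an alternative clamp loader, 1.71-fold, and the nuclease and helicase DNA2 1.69-fold. For 4 of the 30 genes both LSD1+8a shRNA arrays read above both controls without passing the test, namely RECQL4, CHTF18, POLD4 and RPA4. Over the whole array 10483 of the 22465 genes read so. RPA4 lay below the background medians on all 4 arrays. POLD4, a further small subunit of polymerase delta, read 6.97 and 6.96 in control cells and 7.08 and 7.15 with the LSD1+8a shRNA (adjusted p = 0.202). These 4 were named after their values were seen.

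Markers of cycling cells moved with the replication genes. All 6 fell, with a median of -0.76: CDK1 2.12-fold, CCNA2 1.79-fold, TOP2A 1.69-fold, CCNB1 1.69-fold, MKI67 1.53-fold and BUB1 1.45-fold (adjusted p from 0.00834 to 0.0334). With cyclic loess MKI67 and BUB1 lost their calls (adjusted p of 0.0525 and 0.0566), which left 4 of the 6. Of all genes, 11.2% were called lower with the values as deposited and 7.85% after cyclic loess. On all 6 control replicate 1 read below control replicate 2, as on 33 of the 43 replication genes, where 43.5% of all genes did so. In RNA from whole cultures, fewer cycling cells and less of these transcripts per cell cannot be told apart.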

How the data were processed

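Total RNA from 2 control shRNA and 2 LSD1+8a shRNA samples (250 ng each) was measured on 1 array per sample. The deposited log2 values were made by the authors with RMA, per the submitters' processing notes, with an array software version and probe genome build not given in the sources used here. RMA subtracts background, equalises the arrays and summarises probes, so dim genes are compressed and shifts common to all genes are largely removed. Of 67528 transcript clusters, 23781 had 1 gene symbol, 1543 several and 42204 none. One cluster per single-symbol gene (the highest mean) gave 22465 genes. Differences are LSD1+8a shRNA minus control shRNA, tested with limma 3.58.1 in R 4.3.3 (lmFit, eBayes, Benjamini-Hochberg over all 22465 genes, adjusted p of 0.05, no filter on dim genes, no block), and the fit was tested on simulated data. With 2 arrays a group the residual degrees of freedom were 2, to which the moderation added 5.41, and the number of arrays limits the precision. The labels do not say whether equal replicate numbers pair the samples, and the main fit did not pair them. All 44 listed genes were to be named, with the up to 6 largest called falls of the second replication list and all cycling markers. The genes and lists were chosen with earlier results of these data known. The alternatives were other scalings, moderation, filters, cluster rules, thresholds, a replicate block and each array left out.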

Additional observations from a re-analysis of the deposited data

How the results depend on the processing

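The difference was below 0 in 41 of the 43 replication genes under every alternative setting that tested them, 14 in all, of which the filter on dim genes left out ORC1, POLE2 and RPA3. The exceptions were POLD1 and POLD2, for which neither direction was called. POLD1 lay at -0.036 with array medians centred, at -0.10 with medians over all features centred, and between -0.055 and 0.084 with an array left out. POLD2 lay at 0.075 after quantile normalization, at 0.060 after cyclic loess and between -0.083 and 0.043 with an array left out. Genes called over the whole array numbered 5245, against 3493 after quantile normalization (1932 lower and 1561 higher), 2443 after cyclic loess, 881 when all 67528 transcript clusters were tested, and 0 to 2834 with an array left out. Centring array medians over all features of the table, an alternative chosen after seeing the data, gave 3402 lower and 400 higher, moved the median of all genes from 0.08 to -0.04 and the median of the replication genes to -0.61, with 35 of them called. At an adjusted p of 0.01, 176 genes were called and 5 of the 43, at 0.10 there were 9576, and at 0.05 with a difference of at least 1.5-fold, 805 and 13. Of the 43, 10 were called lower over all clusters and 0 to 25 with an array left out. The median ran from -0.53 to -0.43 with an array left out. Replicate-1 deviations correlated at 0.0232 across genes. So weak a correlation shows no broad pattern of genes shared by same-numbered arrays, but a shift common to all genes cannot show in it. It also cannot tell whether those samples were prepared together. With the replicate number as a block, 7954 genes and 37 of the 43 were called. Counts of the 43 under the other scalings, moderation and filters lay between 28 and 33. The causes of these shifts were not tested. RMA keeps no detection calls, so a dim gene such as POLE2 rests on signal near the background.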

Other observations

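The cluster shared by PRIM2, the large primase subunit, and the pseudogene PRIM2BP read 6.74 and 6.70 in control cells and 6.15 and 6.26 with the LSD1+8a shRNA, and the groups do not overlap. The signal cannot be divided between the gene and the pseudogene.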
